A study of Mus musculus with 2 samples.

Results

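The 37 genes of the mouse mitochondrial chromosome were taken by their symbols, which all begin with mt-, from tables of 43346 mouse genes. They comprise 13 protein genes, 2 ribosomal RNA (rRNA) genes and 22 transfer RNA (tRNA) genes. All 37 were found in both tables by Ensembl identifier, and the annotation placed all of them on the mitochondrial chromosome. The tables come from total RNA of neural tubes, from which brain and spinal cord develop, of healthy B6NCrl mouse embryos of both sexes at embryonic day 12.5. The 2 biological replicates form 1 group with no second tissue, stage or treatment. A pool of 88 embryos gave replicate 2 and a pool of 120 gave replicate 1, under 1 donor identifier. The input was 10 ng of RNA above 200 nucleotides a library, with spike-in controls.

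The neural progenitor factor Sox2 stood at 37.6 TPM in replicate 2 and 38.8 TPM in replicate 1, and the neuronal tubulin Tubb3 at 1030.3 and 1004 TPM, so both were present. The progenitor filament gene Nes stood at 114 TPM in replicate 2 and 136 TPM in replicate 1, the neural progenitor factor Pax6 at 19.7 and 21.1 TPM, and the trunk position gene Hoxb8 at 29.7 and 44.1 TPM. Of the 5 markers, 4 were lower in replicate 2 by any amount, against 41.2% of the 15735 genes with a mean TPM of 1 or more. Both mitochondrial rRNA genes were lower too, and the part of the markers in that difference was not tested. TPM is the deposited transcript abundance, corrected for length and depth. Mouse genes held 33530172 expected counts in replicate 2 and 31610805 in replicate 1. Since 2 libraries of 1 group leave no test between them, differences are given as values with intervals that cover counting error only. In a pooled tissue, fewer cells, fewer mitochondria per cell and less RNA per mitochondrion cannot be told apart.

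Mitochondrial DNA is a small circle that encodes core subunits of the respiratory chain together with the rRNAs and tRNAs needed to translate them. Both strands are transcribed into long precursors, and enzymes that cut out the tRNAs release most of the messengers and rRNAs between them. The remaining subunits of the chain, and every protein that copies, transcribes and translates mitochondrial DNA, come from nuclear genes. Fragments of mitochondrial DNA have also been inserted into the nuclear chromosomes during evolution, where they are annotated as pseudogenes.

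The annotated genes were packed closely. Of 36 neighbouring pairs, 9 overlapped, 12 abutted and 14 lay up to 5 nucleotides apart, and the largest gap was 32 nucleotides, between mt-Tn and mt-Tc. A tRNA gene lay within 5 nucleotides of 12 of the 13 protein genes. In all, 28 genes lay on the plus strand and 9 on the minus strand, which held 8 tRNA genes and mt-Nd6. Of the protein genes, 9 began with ATG, and the others with GTG (mt-Nd1), ATA (mt-Nd2), ATT (mt-Nd3) and ATC (mt-Nd5). The annotated mt-Co3, mt-Nd4 and mt-Cytb ended in a single T, as is known for mitochondrial messengers whose stop codon is completed by the poly(A) tail. The longest overlap, of 43 nucleotides, joins mt-Atp8 and mt-Atp6, which are known to share 1 messenger. It is shown (mm10, chrM:7927-7969, plus strand) because it decides whether their reads can be told apart, with the first codon of mt-Atp6 and the last codon of mt-Atp8 in capitals.
mt-Atp8 and mt-Atp6: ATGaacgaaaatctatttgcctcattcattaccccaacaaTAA

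In both tables the effective length, the number of positions at which a read can begin, was 99 nucleotides below the length for 41126 of the 41128 mouse genes of at least 100 nucleotides (within 0.011 nucleotides). The tables therefore treat a read as 100 nucleotides that lie within 1 transcript. No overlap between mitochondrial genes reached that length (0 of 9), so no such read fits in an overlap, and mt-Atp8 and mt-Atp6, or mt-Nd4l and mt-Nd4 with 7 shared nucleotides, do not compete for reads. The 22 tRNA genes, of 59 to 75 nucleotides, had an effective length of 0 and were listed at 0 in both libraries. So were all 2218 mouse genes shorter than 100 nucleotides, and the RNA that entered the libraries was above 200 nucleotides by the labels. These zeros say nothing on the level of mitochondrial tRNA. The shortest and the longest of the tRNA genes, mt-Ts2 for serine (chrM:11613-11671, plus strand) and mt-Tl1 for leucine (chrM:2676-2750, plus strand), show how far below a read they fall.
mt-Ts2: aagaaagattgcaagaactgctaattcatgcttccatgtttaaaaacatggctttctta
mt-Tl1: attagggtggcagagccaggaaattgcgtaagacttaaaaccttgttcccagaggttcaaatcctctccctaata

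The other 15 genes, all 13 protein genes and both rRNA genes, reached at least 1 TPM in both libraries. So did 15181 of the 15735 mouse genes with a mean TPM of 1 or more. Together the 37 genes held 349248 expected counts in replicate 2, or 1.04% of gene counts (95% exact binomial interval 1.038% to 1.045%). In replicate 1 they held 352971, or 1.12% (1.113% to 1.120%). The protein genes held nearly the same share in both, 0.782% in replicate 2 and 0.789% in replicate 1. Most of the difference lay in the rRNA genes, with 0.260% in replicate 2 and 0.328% in replicate 1. The rRNA genes thus held 24.9% of the counts of the 37 genes in replicate 2 and 29.4% in replicate 1. These shares leave out counts placed on nuclear copies of protein genes (below). Such counts were 26.2% of member and copy counts in replicate 2 and 25.6% in replicate 1, so the rRNA share is lower with copies added. No source used here says whether rRNA was removed before sequencing.

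The rRNA genes were both lower in replicate 2. mt-Rnr2, the large rRNA of the mitochondrial ribosome (ENSMUSG00000064339, chromosome M, 1094 to 2675, plus strand), stood at 2379 TPM in replicate 2 and 2930.3 TPM in replicate 1. mt-Rnr1, the small rRNA (ENSMUSG00000064337, chromosome M, 70 to 1024), stood at 808 TPM in replicate 2 and 1009 TPM in replicate 1. The log2 ratios of TPM + 1 (replicate 2 over replicate 1) were -0.30 for mt-Rnr2 and -0.32 for mt-Rnr1. The log2 count ratio per gene counts was -0.33 for mt-Rnr2 (exact binomial interval -0.35 to -0.32) and -0.35 for mt-Rnr1 (-0.38 to -0.32), so counting error is far smaller than either difference. Among 1744 genes averaging 100 TPM or more the 5th percentile of the TPM ratio was -0.14, and 20 of them (1.15%), these 2 included, were as low as mt-Rnr2 or lower. The level of mt-Rnr2 was 2.94 times that of mt-Rnr1 in replicate 2 and 2.90 times in replicate 1, so the pair kept its proportion.

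In deposited TPM the 13 protein genes had a median of 939.8 TPM in replicate 2 and 1113 TPM in replicate 1. The median gene was mt-Co3 in replicate 2 and mt-Co2 in replicate 1, and both share reads with nuclear copies (below). With the counts of the copies added, the medians were 1655 TPM in replicate 2 and 1639 TPM in replicate 1. The highest were the ATP synthase subunits mt-Atp6 (5094 TPM in replicate 2, 4950.0 TPM in replicate 1) and mt-Atp8 (4949.6 and 4866 TPM). Next came cytochrome b of complex III, mt-Cytb (1881 and 1754 TPM), and the complex I subunit mt-Nd1 (1655 and 1639 TPM). The core subunits of cytochrome c oxidase followed, mt-Co1 (1478 and 1427 TPM), mt-Co2 (1249 and 1113 TPM) and mt-Co3 (939.8 and 1134 TPM). The remaining complex I subunits were lower, with mt-Nd4 at 852 and 868 TPM, mt-Nd2 at 507 and 526 TPM, mt-Nd6 at 383 and 418 TPM, and mt-Nd5 at 295 and 335 TPM. Lowest were mt-Nd3 (244 and 217 TPM) and mt-Nd4l (107 and 22.2 TPM). Both share nearly all of their read starts with nuclear copies (below), and they are the shortest protein genes after mt-Atp8, which stood second. In the order of means over the 15 genes, values of neighbours overlapped between mt-Co2 and mt-Co3, between mt-Co3 and mt-Rnr1 and between mt-Rnr1 and mt-Nd4, and were apart for every other neighbouring pair. Apart here means only that the values of the 2 libraries did not cross. The deposited credibility interval of mt-Co2 (863 to 2587 TPM in replicate 2) enclosed the levels of mt-Co1 and mt-Nd1. mt-Atp6 and mt-Atp8 were barely apart, since mt-Atp6 in replicate 1 and mt-Atp8 in replicate 2 both rounded to 4950 TPM. The level of mt-Atp8 rests on 105 read starts, and by counts per annotated length it was 2799 TPM in place of a mean of 4908 TPM.

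**Figure D1:**
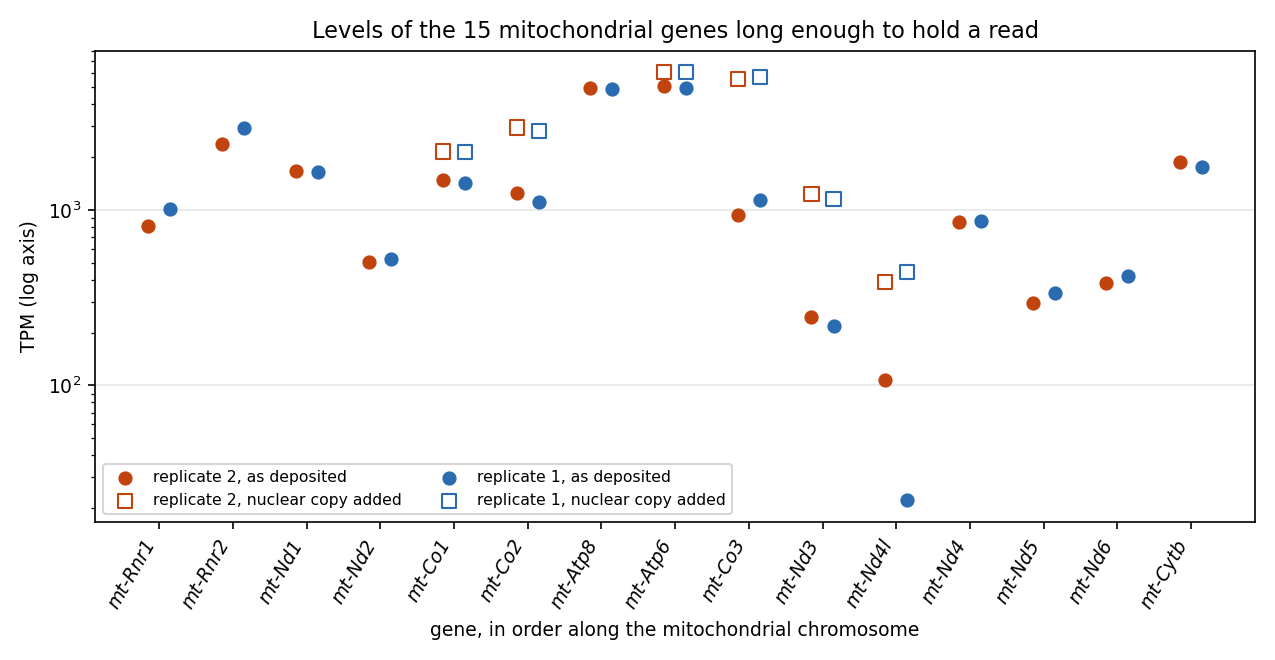
TPM on a log axis for the 15 mitochondrial genes that can hold a read, in order along the chromosome, in replicate 2 (orange, left) and replicate 1 (blue, right). Circles are deposited values and open squares have the counts of the nuclear copy added; mt-Nd4l stands at 107 and 22.2 TPM as deposited and at 388 and 440 TPM with its copy.

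In all, 8 protein genes share read starts with nuclear copies, and adding the counts of the copies moved the levels of 6 of them beyond the spread between libraries (all but mt-Nd2 and mt-Nd4). Every run of 100 nucleotides in the 15 genes was looked up in all annotated transcripts on both strands. No run of mt-Rnr1, mt-Rnr2, mt-Nd1, mt-Atp8, mt-Nd5, mt-Nd6 or mt-Cytb was found in another transcript. These 7 genes had a deposited standard deviation of the count of 0 in both libraries, and from 3321 counts upwards in a library. The other 8 shared runs with pseudogenes, 7 of them with a cluster on chromosome 1 (24611535 to 24616197, minus strand, a span of 4663 nucleotides). The cluster holds copies of mt-Co1, mt-Co2, mt-Atp6, mt-Co3, mt-Nd3, mt-Nd4l and mt-Nd4 and collected 123668 counts in replicate 2 (0.369% of gene counts) and 121331 in replicate 1 (0.384%). Copies of mt-Co1, mt-Co2 and mt-Nd2 on chromosome 2 (Gm13340, Gm13341 and Gm13339) collected 27.2 and 20.2 counts in all.

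Copies on chromosome 1 matched their genes almost base for base. Those of mt-Co2 (Gm28661), mt-Atp6 (Gm10925), mt-Co3 (Gm28437), mt-Nd4l (Gm10222) and mt-Nd4 (Gm28439) had 0 mismatches over 681, 678, 783, 294 and 876 nucleotides. The annotated copy of mt-Nd4l stops just before the stop codon, so 195 of the 198 read starts of mt-Nd4l are also read starts of Gm10222. mt-Nd4l encodes a small membrane subunit of complex I, and its sequence (chrM:9877-10173, plus strand) is given with the bases beyond the copy in capitals.
mt-Nd4l: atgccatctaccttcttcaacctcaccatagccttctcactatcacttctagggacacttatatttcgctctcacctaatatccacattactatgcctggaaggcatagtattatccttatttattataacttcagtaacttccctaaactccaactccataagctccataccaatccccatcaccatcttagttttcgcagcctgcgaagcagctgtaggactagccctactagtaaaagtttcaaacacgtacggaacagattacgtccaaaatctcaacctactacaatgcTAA

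For mt-Co3 a single read start of 685 was not in its copy, the one that takes in the final base. The last 60 bases of mt-Co3 (chrM:9331-9390, plus strand) are shown with that base in capitals.
mt-Co3: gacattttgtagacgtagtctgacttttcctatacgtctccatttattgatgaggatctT

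mt-Nd3 and Gm28438 differed at 1 base of 345, T3C, counted from the first base of mt-Nd3. The first 60 bases of each are shown (mt-Nd3, chrM:9459-9518, plus strand; Gm28438, chr1:24613060-24613119, minus strand) with that base in capitals. The reference sequence is that of C57BL/6J and the embryos were B6NCrl, and the base that the embryos carry there was not read here.
mt-Nd3: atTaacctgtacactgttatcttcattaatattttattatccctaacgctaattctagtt
Gm28438: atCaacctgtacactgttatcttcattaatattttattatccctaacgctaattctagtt

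Gm29216, the copy of the last part of mt-Co1 (its bases 1054 to 1545), differed at 6 bases, all within its first 13 (T1056A, C1057T, A1059G, A1060G, C1062A and A1066T, counted from the first base of mt-Co1). A window of 60 bases shows them in capitals (mt-Co1, chrM:6381-6440, plus strand; Gm29216, chr1:24616138-24616197, minus strand). Of the read starts of mt-Co1, 446 of 1446 (30.8%) were found in a copy. Gm29216 shared 380 runs with mt-Co1 and Gm13340 on chromosome 2 shared 80, some of them in both.
mt-Co1: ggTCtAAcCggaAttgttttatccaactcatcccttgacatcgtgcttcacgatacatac
Gm29216: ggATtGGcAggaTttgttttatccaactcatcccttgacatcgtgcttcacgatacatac

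The division of counts differed widely between genes. For mt-Co3 most counts went to the copy, with 13290.4 on mt-Co3 against 65233 on Gm28437 in replicate 2, and 15450.1 on mt-Co3 against 62094 on Gm28437 in replicate 1. For mt-Nd3 the copy took 80.0% of the shared sum in replicate 2 and 81.2% in replicate 1, and for mt-Co2 57.6% and 60.4%. For mt-Atp6, with as large a share of its starts in a copy as mt-Co2 (99.5% each), Gm10925 took 16.2% and 18.5%. For mt-Co1 the share of the copies was 31.18% and 32.97%, nearly all of it on Gm29216. Gm13340 held 16.1 counts in replicate 2 and 10.7 in replicate 1. For mt-Nd4, of whose read starts 777 of 1279 (60.8%) are in Gm28439, the copy took 3.67 counts in replicate 2 and 0 in replicate 1. Its shared stretch is the first 876 bases of mt-Nd4, and that of mt-Co1 lies at the other end of the gene.

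**Figure D2:**
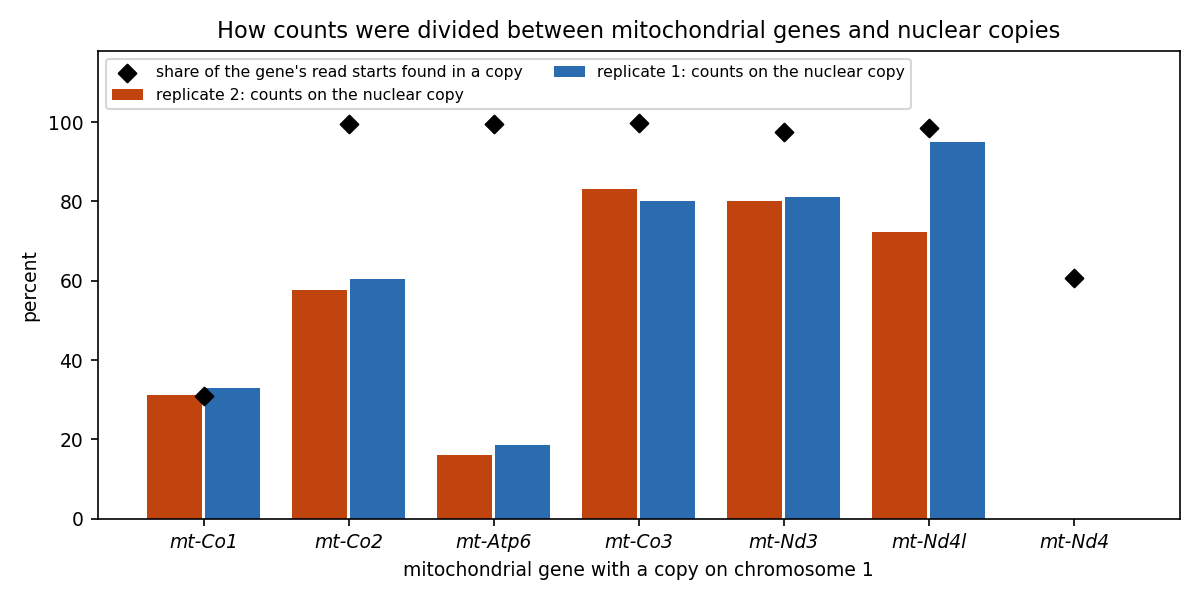
Percent of the summed counts of a mitochondrial gene and its nuclear copies that fell on the copies, in replicate 2 (orange, left) and replicate 1 (blue, right), with diamonds for the percent of the gene's read starts that occur in a copy. Genes with more than 97% of starts in a copy range from 16.2% (mt-Atp6) to 94.96% (mt-Nd4l) of counts on the copy.

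For the genes that share nearly all of their starts, the deposited standard deviation of the count was a sizeable part of the count or above it. It was 19894 for mt-Co3 in replicate 2, 150% of its 13290.4 counts, and 117% in replicate 1. It was 47.0% of the count in replicate 2 and 45.7% in replicate 1 for mt-Co2, and 15.1% in replicate 2 for mt-Atp6. The deposited credibility interval of mt-Co3 accordingly ran from 511 to 4390.4 TPM in replicate 2 and from 617 to 4280.0 TPM in replicate 1. That of mt-Atp6, 3515 to 5444 TPM in replicate 2 and 3430.1 to 5521 TPM in replicate 1, enclosed the level of mt-Atp8. In contrast, mt-Nd4, with 502 starts of its own, ran from 817 to 839 TPM in replicate 2 and from 832 to 854 TPM in replicate 1. These bounds surround the authors' posterior mean (828 TPM for mt-Nd4 in replicate 2), not the deposited TPM, so that the TPM of mt-Nd4 lies above its own interval. For mt-Co3 and mt-Co2 the posterior mean was above the TPM, at 2049 TPM in replicate 2 and 2230 TPM in replicate 1 for mt-Co3 and at 1527 and 1428 TPM for mt-Co2. For 7 genes that have counts on a copy, the sum of gene and copies was a whole number in both libraries (7 of 7, within 0.025), while the gene's own count was whole in both for 0 of 7. Whether any of these reads came from the nuclear cluster cannot be told apart from these tables.

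With the counts of the copies added to the gene and divided by its effective length, the order of the genes changed. This sum, an alternative added after seeing the data, is the level each gene would have if every such read were its own. mt-Atp6 stayed highest (6079 TPM in replicate 2, 6076 TPM in replicate 1), and mt-Co3 moved from rank 8 to rank 2 of 15, with 5553 and 5692 TPM. mt-Co2 had 2943 and 2809 TPM, mt-Co1 2147 and 2129 TPM, mt-Nd3 1224 and 1158 TPM, and mt-Nd4l 388 and 440 TPM. All 3 cytochrome c oxidase genes then stood above mt-Cytb and mt-Nd1, and the lowest gene was mt-Nd5 in place of mt-Nd4l. The mitochondrial share of gene counts became 1.41% in replicate 2 and 1.501% in replicate 1.

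Genes that lie on 1 messenger can be set side by side on the TPM scale. The level of mt-Atp8 was 0.972 times that of mt-Atp6 in replicate 2 and 0.983 times in replicate 1, and with copies added 0.814 and 0.801 times. These ratios depend on the effective length. By counts per annotated length the means were 2799 TPM for mt-Atp8 and 4756 TPM for mt-Atp6. mt-Nd4l and mt-Nd4, which also share a messenger, were far apart as deposited, with mt-Nd4l at 0.126 times mt-Nd4 in replicate 2 and 0.0255 times in replicate 1. With copies added the ratio was 0.456 in replicate 2 and 0.507 in replicate 1.

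Between the libraries, 1 of the 15 genes was over 2-fold apart, against 1.43% of the 15735 genes with a mean TPM of 1 or more (0.597% when only genes higher in replicate 2 are counted). This was mt-Nd4l, with 437 expected counts in replicate 2 and 87.4 in replicate 1, a ratio of 2.22 on the log2(TPM + 1) scale. Gm10222 went the other way, with 1150 counts in replicate 2 and 1647 in replicate 1. Their sum was 1587 counts in replicate 2 and 1734 in replicate 1, and the ratio of the summed level was -0.18, against 2.22 for mt-Nd4l alone. The log2 count ratio per gene counts was 2.24 for mt-Nd4l alone (exact binomial interval 1.91 to 2.59) and -0.21 for the sum (-0.31 to -0.11). These intervals take each count as read and leave out the division, for which the deposited TPM intervals of mt-Nd4l, 35.7 to 182 in replicate 2 and 3.86 to 96.8 in replicate 1, overlapped. By the authors' posterior mean, mt-Nd4l stood at 99.1 TPM in replicate 2 and 46.3 TPM in replicate 1. mt-Co3 likewise had a ratio of -0.27 alone and -0.04 with its copy. With copies added, 0 of the 15 genes were over 2-fold apart, and the ratios of the 13 protein genes lay between -0.19 and 0.10 on the log2(TPM + 1) scale.

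**Figure D3:**
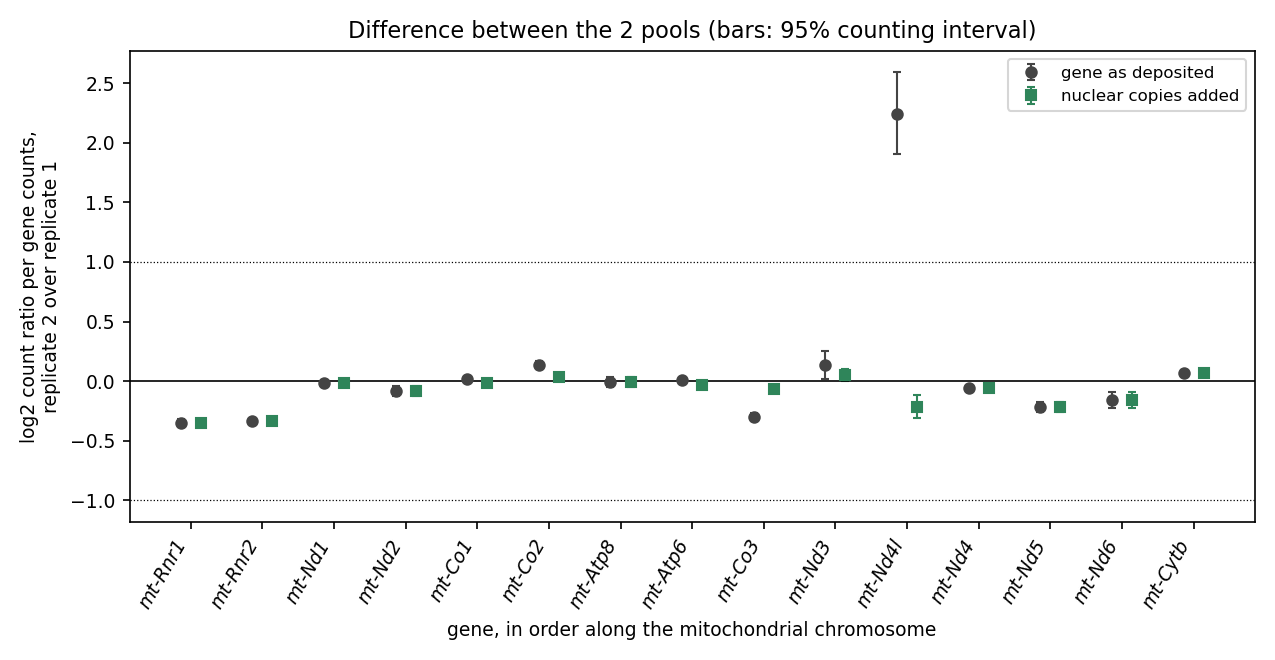
Log2 ratio of counts per gene counts, replicate 2 over replicate 1, for each gene as deposited (circles) and with nuclear copies added (squares), with 95% exact binomial intervals and dotted lines at 2-fold. mt-Nd4l is at 2.24 alone and at -0.21 with its copy, and the rRNA genes mt-Rnr1 and mt-Rnr2 are at -0.35 and -0.33 in both.

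Of the 15 genes, 7 were lower in replicate 2 by deposited TPM, against 41.2% of all genes tested. The deposited TPM intervals of 6 genes did not overlap between the libraries, against 14.3% of all genes tested, and 5 of the 6 share no read start with a copy. Besides both rRNA genes these were mt-Nd5 (ratio -0.19), mt-Nd6 (-0.12), mt-Cytb (0.10) and mt-Co1 (0.05, and 0.01 with copies added). The 14.3% is not a like background. Higher counts narrow such intervals, and the genes tested had a median of only 17.0 TPM in replicate 2 and 16.6 TPM in replicate 1. mt-Nd6 is the only protein gene of the minus strand (chromosome M, 13552 to 14070), and mt-Nd5 and mt-Cytb are the nearest protein genes of the plus strand. No source used here says whether strand was used in counting, so reads of mt-Nd6 and of plus-strand precursors over it cannot be told apart.

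Mitochondrial subunits of the respiratory chain mostly stood above the nuclear ones of the same complex. The median of the 13 protein genes was higher than that of 75 nuclear subunits of complexes I to V by 1.52 in replicate 2 and 1.75 in replicate 1 on the log2(TPM + 1) scale (mean 1.64 ± 0.17, SD over 2 libraries). The difference was larger than that between the libraries. The mitochondrial median was the level of mt-Co3 in replicate 2 and of mt-Co2 in replicate 1, whose counts are divided with copies. The SD of 0.17 therefore takes in that division, and with copies added the mean difference was 2.32. For complex V, mt-Atp6 and mt-Atp8 both exceeded every nuclear subunit, of which Atp5b (catalytic beta subunit) at 1740.4 ± 19.1 TPM and Atp5h at 741 ± 5.16 TPM were highest. All 3 complex IV genes exceeded the highest nuclear one, Cox6b1, at 925 ± 1.79 TPM, with Cox4i1 next. The deposited intervals of mt-Co3 in both libraries (from 511 TPM in replicate 2 and 617 TPM in replicate 1) began below Cox6b1. So did that of mt-Co2 in replicate 2 (from 863 TPM). mt-Cytb exceeded Uqcrq, the highest of complex III at 512 ± 16.2 TPM, and Uqcr10, which came next. Complex I was mixed, with a median of 383 TPM in replicate 2 and 418 TPM in replicate 1 over 7 mitochondrial genes, against 240.3 and 241.8 TPM over 36 nuclear ones. Only mt-Nd1 and mt-Nd4 exceeded the highest of these, Ndufc1 at 619 ± 29.4 TPM (Ndufab1 came next), and with copies added mt-Nd3 did too. Complex II has no mitochondrial subunit, and its 4 nuclear genes had a median of 179.5 TPM in replicate 2 and 181.3 TPM in replicate 1, with Sdhb and Sdhc highest.

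**Figure D4:**
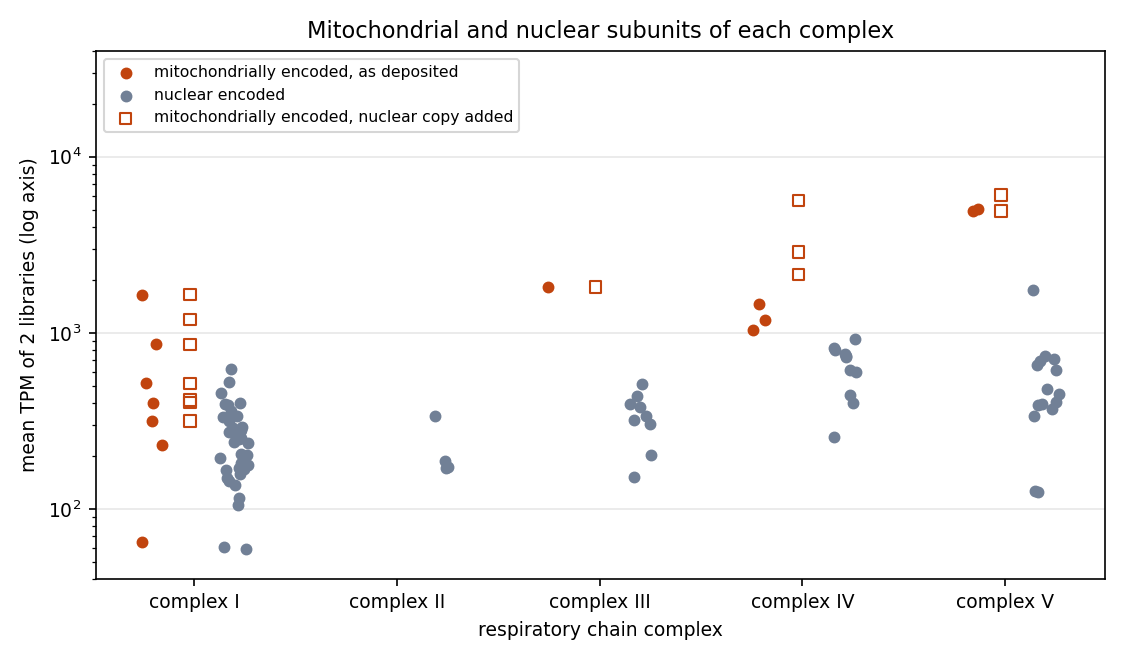
Mean TPM of 2 libraries, on a log axis, of the subunits of each respiratory chain complex: mitochondrially encoded as deposited (orange circles) and with nuclear copies added (open squares), and nuclear encoded (grey). The 2 mitochondrial genes of complex V and all 3 of complex IV lie above every nuclear subunit of their complex.

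Nuclear genes that serve the mitochondrial chromosome were all detected, and the median of each list was below that of the mitochondrial protein genes. All 10 transcription genes reached 1 TPM in both libraries, with a median of 27.9 TPM in replicate 2 and 23.1 TPM in replicate 1. They were led by Mterf3, a regulator of mitochondrial transcription (70.7 ± 0.495 TPM), and Tfam, which packages mitochondrial DNA and opens its promoters (59.4 ± 3.69 TPM). The 17 replication and packaging genes had medians of 19.9 and 20.9 TPM, led by the single-strand binding protein Ssbp1 (123 ± 5.05 TPM), with Slc25a36, a carrier of pyrimidine nucleotides, next. The 26 genes of RNA processing and stability had medians of 27.6 and 26.3 TPM, led by Slirp, which binds mitochondrial messengers (208 ± 12.8 TPM), and Hsd17b10, a subunit of the enzyme that cuts the 5′ ends of tRNAs (117 ± 3.04 TPM). Of the 77 mitochondrial ribosomal protein genes, all were detected, with medians of 76.8 and 77.7 TPM and Mrps21 (294 ± 2.28 TPM) and Mrpl42 highest. The 19 tRNA synthetase genes had medians of 20.9 and 18.2 TPM. The leucyl enzyme Lars2 stood apart at 812 ± 49.7 TPM, above 5 mitochondrial protein genes as deposited, with the glycyl enzyme Gars next. Sequence shared with other transcripts was looked up for mitochondrial genes only, not for Lars2 or other nuclear genes. The 13 translation factor genes had medians of 21.7 and 23.4 TPM, led by the peptide release protein Mrpl58 and the elongation factor Tufm. Over all 15735 genes the median was 17.0 TPM in replicate 2 and 16.6 TPM in replicate 1.

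Between the libraries, 24 of the 75 nuclear subunits of the chain were higher and 51 lower in replicate 2, while 41.2% of all genes tested were lower. Their median log2 ratio was -0.04, and 0 were over 2-fold apart, against 1.43% of all genes tested. The mitochondrial protein genes had a median ratio of 0.00 with copies added. The ribosomal proteins of the mitochondrion, which bind the lower rRNAs, were split, 39 higher and 38 lower in replicate 2, with a median of 0.00. Over all genes tested the median ratio was 0.03.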

How the data were processed

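The authors deposited 1 table per gene for each library. The deposited read-me text names assembly mm10, GENCODE M4 and alignments to the transcriptome. The quantification program is unnamed in the sources used here. Deposited expected counts estimate the reads of a gene. Deposited TPM values divide them by effective length and scale them to the library. The deposited bounds of TPM (unit: signal) are credibility intervals of unstated level. Count standard deviations are the authors'. By its title the series has been superseded by another, not used here.

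Names, coordinates (1-based) and transcript sequences came from GENCODE M21 (GRCm38, another name of mm10). In all, 42462 of 43346 genes were matched. Copies among the 884 unmatched genes were not looked for. Lengths of all 37 members were the same in both sources. Sequences are credited to GENCODE M21, since the RefSeq tables used here were not searched for them. Number-named and spike-in rows stayed out of totals.

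Ratios set replicate 2 over replicate 1 as log2(TPM + 1), a scale on which low genes differ by less. A floor of 3 counts allows up to 0.0895 CPM in replicate 2 and 0.0949 CPM in replicate 1. Intervals are exact (Clopper-Pearson, 95%) and cover counting error only. Scaling factors came from edgeR 4.0.16 and DESeq2 1.42.0 on rounded expected counts (17642 genes with at least 20 summed counts). Python 3.11.15, scipy 1.17.1 and R 4.3.3 were used. The scripts were tested on simulated data. With 1 group no p-value was computed. All 37 members are accounted for, and each nuclear list is named by its 2 highest members. At most 5 nuclear copies were to be named, and the other copies, and the tRNAs shown by sequence, were chosen after their values were seen. Members and lists were chosen with earlier results of these data known. Alternatives tried were the unit, the pseudocount, the scaling, thresholds, summed overlapping pairs, added nuclear copies and leaving out each library.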

Additional observations from a re-analysis of the deposited data

How the results depend on the processing

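The share of the 37 genes in gene counts, 1.08% as a mean of the libraries, was 2.48% of TPM, 0.788% without the rRNA genes and 1.46% with nuclear copies added. With all rows in the total it moved by less than the spread between libraries, and it ranged from 1.04% to 1.12% when each replicate was left out. The median level of the 13 protein genes, 1026 TPM, was 1412 TPM by the posterior mean and 1647 TPM with copies added, and ranged from 939.8 to 1113 TPM without a replicate. The difference from nuclear subunits, 1.64, was 2.14 by the posterior mean and 2.32 with copies added, and ranged from 1.52 to 1.75 without a replicate. The count of 15 genes at 1 TPM or more held under every threshold tried. The count of genes over 2-fold apart, 1, was 0 with copies added and 0 with overlapping pairs summed. The log2 ratio of mt-Nd4l, 2.22, became -0.18 with copies added and -0.0054 when summed with mt-Nd4, whose counts outnumber it. It was 1.08 by the posterior mean and between 1.90 and 2.27 under the other pseudocount and 3 other scalings. The ratios of both rRNA genes stayed between -0.36 and -0.30 under all alternatives run. No paired analysis was possible because the design has 1 group. Depth does not limit these genes, but the division of reads with copies does for mt-Co1, mt-Co2, mt-Atp6, mt-Co3, mt-Nd3 and mt-Nd4l.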
